A study of Equus caballus with 68 samples.

Results

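The S100 family with S100A1 was followed in equine bone marrow mononuclear cells (BMNC) cultured in healthy or inflamed joint fluid. S100A1 was chosen by its measured values, because it stood far lower in inflamed fluid from 96 hours on. The other members, S100A4, S100A6, S100A8, S100A9, S100A10, S100A11, S100A12 and S100A13, were taken as relatives to set beside it. A row was a member when it carried one of these 9 symbols. Of 24065 genes above 0 in at least 1 library, 7 were members, each from 1 row, and all 7 were among the 14570 genes tested. No row carried the symbols S100A8 or S100A9, and both were not analysed here.

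BMNC came from the sternal marrow of 8 healthy Thoroughbred horses aged 3 to 9 years, 2 females and 6 geldings, and were separated on a density gradient. They were sequenced before culture (0 hours, 8 libraries) or after culture in undiluted fluid from the same horse, renewed by additions every 48 hours. SF was synovial fluid from healthy middle carpal joints, and ISF was synovial fluid from radiocarpal joints drawn after an injection of lipopolysaccharide (LPS), both freed of cells by centrifugation, so the joint and the inflammation cannot be told apart. SF and ISF cultures were read at 48 hours (7 horses per fluid), 96 hours (8), 6 days (8) and 10 days (7), giving 68 libraries with 1 per horse, fluid and time point. No group pooled horses. Expression is given as GeTMM, reads per kilobase of gene relative to the library and scaled between libraries, so that levels of different genes can be set side by side.

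S100 proteins are small calcium-binding proteins that act mostly as dimers. Inside the cell they bind and modulate other proteins when calcium rises, among them annexins, myosins and calcium channels. Phagocytes also release some of them as alarmins, danger signals that engage the receptor for advanced glycation end products (AGER) and Toll-like receptor 4 on neighbouring cells. S100A8, S100A9 and S100A12 are the alarmins of neutrophils and monocytes and are well known in inflamed joints, whereas S100A1 is best known from heart and skeletal muscle, where it acts on calcium release and re-uptake.

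Libraries held 15.6 M to 35.8 M reads on genes (median 21.6 M), recovered from the steps of the GeTMM values, and members took a median of 1.37% of them at 0 hours. The summed level of 7 macrophage marker genes stood at a median of 212 GeTMM at 0 hours, 45561 in SF at 10 days and 64174.5 in ISF at 10 days. All 7 were higher at 10 days than at 0 hours in both fluids (FDR under 0.05). Over that span 69.6% of all genes tested were called in SF and 74.5% in ISF. The SF library of Moon at 6 days stood apart, with a median correlation of 0.835 with its group against 0.947 for the next lowest library. It held the highest value of all libraries of its group for 6 of 7 members and for 29.2% of all genes tested. Its GeTMM values summed to 2.32e+06, against at most 1.46e+06 in any other library. In a profile of 200 genes that differ between horses, 66 of 68 libraries were closest to their own horse. The ISF libraries labelled Dealings and Dreamer at 96 hours were each closest to the other horse. Counts of horses, ratios within a horse and the fit with the horse as a replicate block keep the horses as labelled, which may be wrong for these libraries. Calls that change without the Moon library or without these ISF libraries are named beside the results. Values from bulk RNA cannot tell fewer cells of a type from less RNA per cell.

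Before culture S100A12 dominated among the 7 members. It held 90.0% of the members' summed GeTMM on average, followed by S100A11 with 6.46% and S100A4 with 2.31%. This sum leaves out S100A8, S100A9 and S100P, which is not a member. The 10 other S100 genes listed, nearly all of it S100P, summed to a median of 20338 GeTMM at 0 hours, against 36113 for the members. S100A1 held 0.0736% and S100A13 held 0.00795%. In this order of median level at 0 hours (S100A12, S100A11, S100A4, S100A6, S100A10, S100A1, S100A13), only the ranges of S100A6 and S100A10 overlapped. By 10 days in SF the share of S100A12 was 9.96% and that of S100A11 was 55.5%, with S100A1 at 4.23%. In ISF at 10 days S100A12 held 0.361%, S100A11 60.7%, S100A4 21.2%, S100A6 13.96% and S100A1 0.0896%. At that time S100A11 opened the order in both fluids, and its range stood clear of the next member in both. The range of S100A1 overlapped those of its neighbours S100A10 and S100A13 in SF, and that of its neighbour S100A12 in ISF.

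**Figure D1:**
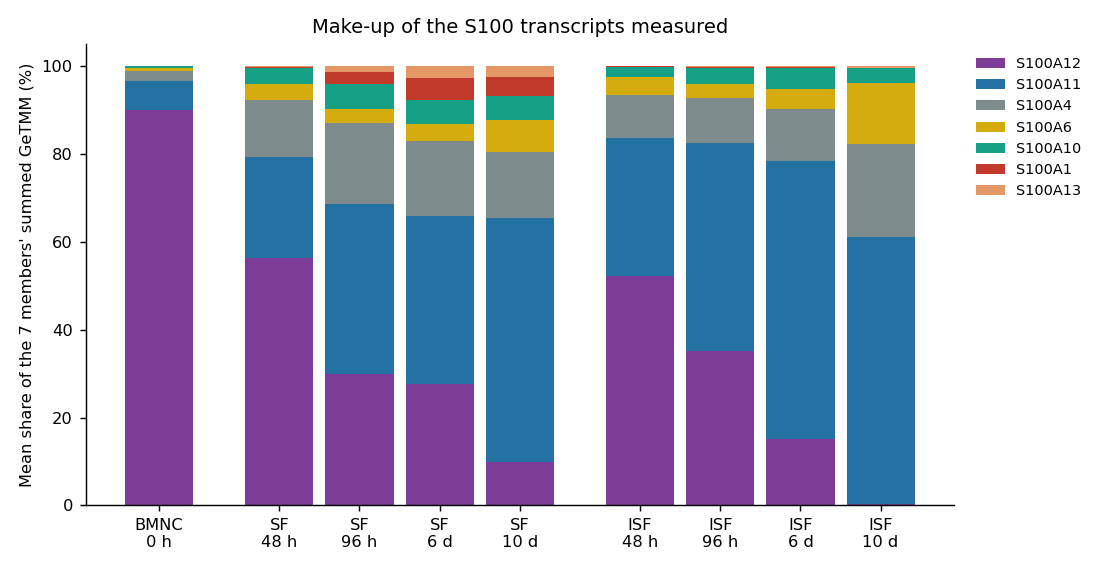
Stacked bars of each member's mean share (percent, over the libraries of a group) of the summed GeTMM of the 7 members, for BMNC at 0 hours and for SF and ISF cultures at each time point. S100P, which is not a member, is not in this sum. S100A12 filled 90.0% of the bar at 0 hours and 0.361% in ISF at 10 days, while the S100A1 segment reached 5.02% in SF at 6 days and 0.0750% in ISF.

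S100A1, the member that the others are compared with, was the second lowest of the 7 members before culture. Its level at 0 hours ran from 9.79 to 52.3 GeTMM with a median of 28.6, higher than 71.3% of the genes tested. At 48 hours it ran from 2.35 to 34.6 in SF (median 10.7) and from 0.690 to 3.11 in ISF (median 1.40). Every ISF library at 48 hours lay below every library at 0 hours, whereas the SF libraries overlapped both. These ISF values rest on 4 to 19 reads per library, so counting error is large there.

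The change of S100A1 from 0 to 48 hours used no library from the time points that chose it and was therefore tested. In ISF it fell by 3.14 on the log2(GeTMM + 1) scale (SE 0.55, FDR 2.47e-06), in 7 of 7 horses, and each horse's level dropped by a median of 12.6-fold. This call held in 17 of 17 alternatives (FDR 2.10e-07 to 0.00622). In SF the change was -0.92 (SE 0.55, FDR 0.175), with 5 horses lower and 2 higher, and no alternative called it. Of the 7 members, 3 were called over this interval in each fluid, where 45.4% of all genes tested were called in SF and 52.7% in ISF.

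In SF S100A1 was above the same horse's level at 0 hours in 6 of 8 horses at 96 hours (Moon and RimRun were below), in 8 of 8 at 6 days and in 7 of 7 at 10 days. It ran from 28.6 to 473 GeTMM at 96 hours (median 177), from 68.6 to 1174 at 6 days (median 319.9) and from 52.5 to 471 at 10 days (median 294). In ISF it ran from 2.82 to 14.3 at 96 hours (median 7.58), from 0.696 to 18.3 at 6 days (median 6.33) and from 2.49 to 16.2 at 10 days (median 9.23). The fluids did not overlap at these time points, and the lowest SF library exceeded the highest ISF library 2.00-fold at 96 hours, 3.76-fold at 6 days and 3.25-fold at 10 days. Groups that do not overlap were seen for 2.11%, 3.34% and 4.96% of all genes tested at 96 hours, 6 days and 10 days, and nothing is read from this for S100A1, which was selected on this difference. Seen by rank, its median in SF at 10 days was higher than 97.0% of the genes tested, and in ISF higher than 48.1%.

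**Figure D2:**
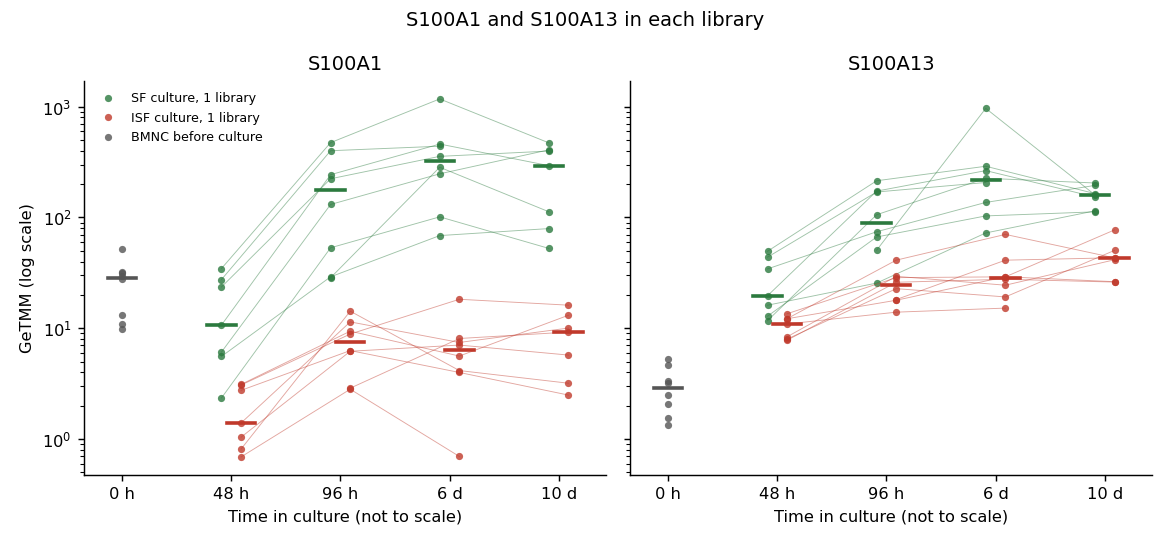
GeTMM (log axis) of S100A1 (left) and S100A13 (right) in each library over time in culture. Points are libraries (grey at 0 hours, green SF, red ISF), thin lines join the cultures of 1 horse in 1 fluid, and bars are group medians. The SF and ISF libraries of S100A1 separate from 96 hours, with medians of 177 and 7.58 at that time, and S100A13 climbs from a median of 2.87 at 0 hours in both fluids.

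Horses differed widely in how much S100A1 their SF cultures held. Lurie was the highest SF library at every time point from 48 hours, with 34.6, 473, 1174 and 471 GeTMM. Moon, RimRun and Ollie were the lowest at 96 hours, with 28.6, 29.1 and 53.2 GeTMM. Moon then stood at 284 at 6 days, in the library that stood apart (149 reads at 96 hours and 826 at 6 days). In ISF the range over horses was narrower on the linear scale, with RimRun highest at 6 days (18.3) and 10 days (16.2) and Flash at 0.696 at 6 days. Within a horse the SF level divided by the ISF level ran from 1.68 to 39.9 at 48 hours (median 8.57), from 3.28 to 142 at 96 hours (median 22.7), from 3.76 to 631 at 6 days (median 62.4) and from 4.91 to 159 at 10 days (median 35.9). RimRun had the smallest ratio at 96 hours, 6 days and 10 days.

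S100A1 was lower in ISF in 7 of 7 horses at 48 hours, 8 of 8 at 96 hours, 8 of 8 at 6 days and 7 of 7 at 10 days. These differences are descriptions of the values that chose the gene and carry no test. Without the ISF libraries labelled Dealings and Dreamer at 96 hours the ISF values ran from 2.82 to 11.4, and without Moon the SF values at 6 days kept their range of 68.6 to 1174. The time course within each fluid can be described in the same way. In SF the level was higher at 96 hours than at 48 hours in 7 of 7 horses, by a median of 14.5-fold, and from 6 to 10 days it was higher in 3 horses and lower in 4. In ISF it was higher at 96 than at 48 hours in 7 of 7 horses, by a median of 4.08-fold, and at 10 days it was still below 0 hours in 7 of 7 horses, by a median of 2.92-fold, while in SF it was above 0 hours in 7 of 7, by a median of 14.3-fold.

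Several cell type lists differed between the fluids at these times. Beside these lists, 10.5%, 30.2% and 20.8% of all genes tested were called between the fluids at 96 hours, 6 days and 10 days. All 5 T cell markers were lower in ISF at 6 days and at 10 days (FDR under 0.05), and their summed level ran from 23.5 to 199 GeTMM in SF at 10 days against 4.33 to 14.8 in ISF. At 96 hours limma called 0 of these 5, with 5 at an unadjusted p under 0.05 and 0 in the voom fit. All 4 B cell markers were likewise lower at 6 and 10 days and 1 of 4 at 96 hours, with sums of 6.10 to 139 in SF against 1.42 to 10.2 in ISF at 10 days. All 5 fibroblast markers were lower in ISF at 10 days in limma, but the voom fit called 2 of 5. Their sums ran from 0.406 to 4038 in SF (Lurie highest) against 0.123 to 49.2 in ISF. At 96 hours and at 6 days limma called 0 of 5, with 0 at an unadjusted p under 0.05 and 0 in the voom fit at each. All 3 megakaryocyte markers tested were lower in ISF at 6 days, with medians of their sum of 231 in SF and 16.01 in ISF, and limma called 0 of 3 at 10 days, with 0 at an unadjusted p under 0.05 and 0 in the voom fit. Of 7 macrophage markers, MSR1 and SPP1 were higher and GPNMB lower in ISF at 96 hours, MSR1 higher and GPNMB lower at 6 days, and MSR1 higher at 10 days. No marker of these lists was at 0 in every library of a group. Their part in the S100A1 values was not tested. Chondrocytes are cartilage cells in which S100A1 and S100B are well known. The sum of 6 chondrocyte markers was at most 0.869 GeTMM in the cultures other than the SF library of Lurie at 10 days, where it was 7.39. S100B was listed at 0 in all 68 libraries, and the part of these cells in the S100A1 values was not tested either.

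S100A13, which binds copper and assists the release of proteins that lack a signal peptide such as FGF1 and interleukin 1 alpha, was the member nearest to S100A1 in its behaviour. The gene models of S100A13 and S100A1 overlap in the RefSeq annotation of another horse assembly. The paper states that the reads were stranded, but whether the counting used strand is not given. Reads of the pair may therefore be shared in part. The deposited values imply gene lengths of 297 bases for S100A13 and 285 bases for S100A1. The level of S100A1 divided by that of S100A13 reached 33.6 at 0 hours and fell to 0.0458 in ISF at 6 days. Sharing of reads was not tested. The differences of S100A13 are for this reason not taken as independent evidence for those of S100A1.

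At 0 hours S100A13 was low, from 1.33 to 5.23 GeTMM (median 2.87, 5 to 24 reads). It rose from 0 to 48 hours in both fluids, by 2.68 in SF (SE 0.36, FDR 4.66e-09) and by 1.57 in ISF (SE 0.36, FDR 1.75e-04), in 7 of 7 horses in each. It ran from 11.7 to 49.5 GeTMM in SF at 48 hours (median 19.6) and from 7.80 to 13.5 in ISF (median 10.9). From 48 to 96 hours it rose again, by 1.91 in SF (SE 0.36, FDR 2.69e-05) and by 1.13 in ISF (SE 0.36, FDR 0.0180). The ISF step was called in 13 of 17 alternatives and lost in the voom fit and without Dealings, Dreamer or Ollie (highest FDR 0.137).

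Over the whole culture S100A13 rose by 5.36 in SF (SE 0.36, FDR 1.05e-20) and by 3.49 in ISF (SE 0.36, FDR 2.31e-13). Both net changes start from the same libraries at 0 hours, so that their difference is the difference between the fluids at 10 days. S100A1 and S100A13 exchanged places early in culture. At 0 hours S100A1 exceeded S100A13 in 8 of 8 horses, with a median ratio of 7.10, and at 48 hours it lay below S100A13 in 7 of 7 libraries of each fluid. In SF the median ratio came to 1.32 at 96 hours, 1.42 at 6 days and 1.92 at 10 days. In ISF it stayed at 0.300, 0.195 and 0.170 at those times, with S100A1 below S100A13 in every library.

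The difference of S100A13 between the fluids was tested. It ran from 25.6 to 214 GeTMM in SF at 96 hours (median 90.0) against 13.97 to 41.2 in ISF (median 24.4), from 72.5 to 965 in SF at 6 days (median 216) against 15.2 to 70.3 in ISF (median 28.4), and from 112 to 205 in SF at 10 days (median 159.8) against 26.1 to 77.2 in ISF (median 43.2). The groups overlapped at 96 hours but not at 6 and 10 days, where the gap was 1.03-fold and 1.46-fold. A lack of overlap was seen for 3.34% of all genes tested at 6 days and for 4.96% at 10 days. S100A13 was lower in ISF by 1.89 at 96 hours (log2 fold change -1.89, SE 0.35, FDR 8.93e-05), by 2.81 at 6 days (-2.81, SE 0.35, FDR 3.85e-09) and by 1.87 at 10 days (-1.87, SE 0.37, FDR 1.22e-04), and each of these calls held in 17 of 17 alternatives (highest FDR 0.00320). At 48 hours the value was -1.11 (SE 0.37, FDR 0.107), with 7 of 7 horses lower, and 3 of 17 alternatives called it (FDR 0.0128 to 0.359), the one without the Moon library among them (FDR 0.0380). RimRun at 96 hours was the 1 exception in direction, with 25.6 GeTMM in SF and 41.2 in ISF. The highest SF value at 6 days, 965, came from the Moon library that stood apart, and the next was 289.7. Without that library the difference at 6 days was -2.49 (FDR 1.68e-08).

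Among the 6 members other than S100A1, 2 were called between the fluids at 96 hours, where 10.5% of all genes tested were called, 2 at 6 days (30.2% of all genes), and 4 at 10 days (20.8%). At 48 hours limma called 0 of 6, while 1.68% of all genes were called, with 2 of 6 at an unadjusted p under 0.05 and 0 of 6 in the voom fit. S100A13 was lower and S100A11 higher at 96 hours and at 6 days, and at 10 days S100A12 was also lower and S100A6 also higher. With so few members these counts describe the family and carry no test.

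**Figure D3:**
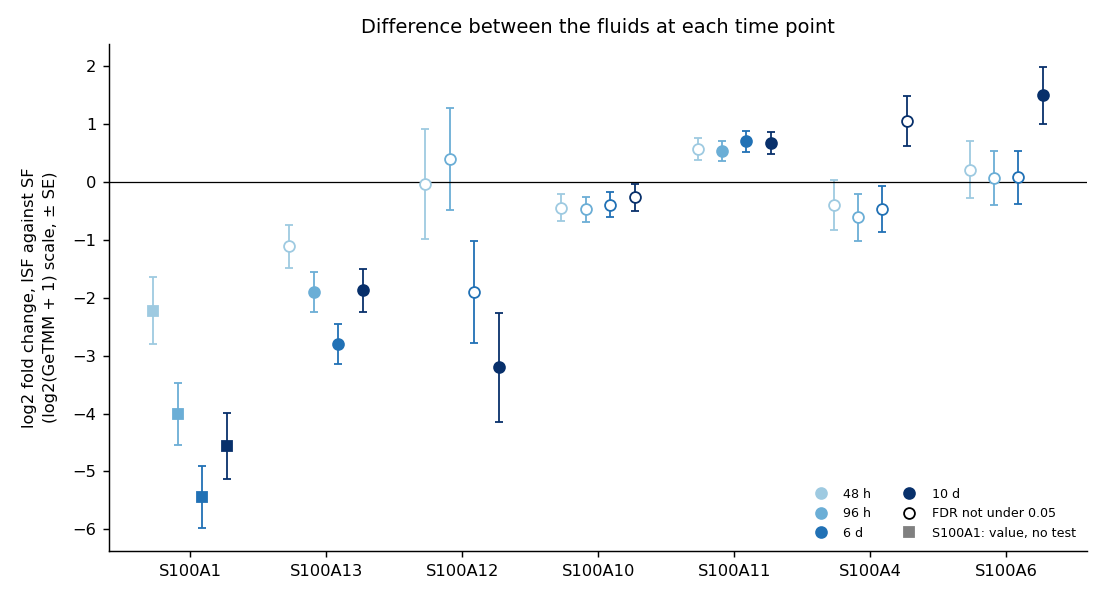
Log2 fold change of ISF against SF on the log2(GeTMM + 1) scale for each member at 48 hours, 96 hours, 6 days and 10 days (light to dark blue), with bars of 1 SE. Filled circles had an FDR under 0.05, open circles did not, and squares are S100A1, which was chosen on these values and not tested. S100A1 and S100A13 lie below 0 throughout, S100A11 lies above 0, and S100A12 reaches -3.20 at 10 days while S100A6 reaches 1.49.

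Within horses S100A1 and S100A13 were both lower in ISF in 7 of 7, 7 of 8, 8 of 8 and 7 of 7 pairs at 48 hours, 96 hours, 6 days and 10 days. The S100A1 difference was the larger of the pair in 6, 8, 8 and 7 of them. Over the 30 pairs of libraries the differences of the 2 genes had a Pearson r of 0.82, and over 68 libraries their levels had an r of 0.71, where 44 genes were more like S100A1 than S100A13 was. The pairs share horses and possibly reads, so these values are descriptions.

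**Figure D4:**
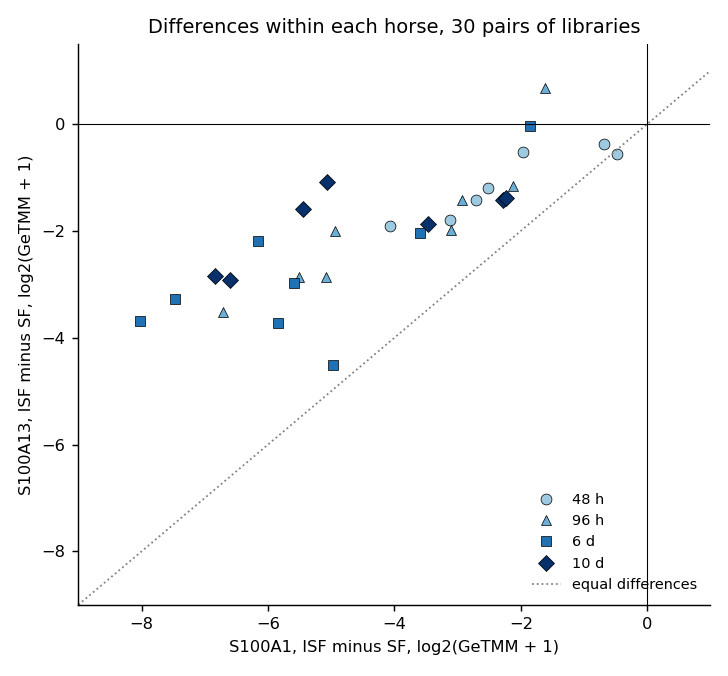
ISF minus SF difference of S100A1 (horizontal axis) and of S100A13 (vertical axis) on the log2(GeTMM + 1) scale, 1 point for each of the 30 pairs of libraries, with symbols for the time points. The dotted line marks equal differences. Most points lie above it, the S100A1 difference being larger in 6 of 7, 8 of 8, 8 of 8 and 7 of 7 pairs, and the single point above 0 on the vertical axis is RimRun at 96 hours.

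S100A12, the alarmin of granulocytes also named calgranulin C, was among the most abundant of all transcripts before culture and was lost over time. It ran from 22736 to 65935 GeTMM at 0 hours (median 32534), a level above 99.99% of the genes tested. At 48 hours it ran from 1797 to 9352 in SF (median 4802) and from 2495 to 7464 in ISF (median 4354). The fluids overlapped almost fully at that time. From 0 to 48 hours S100A12 fell in SF (-2.90, SE 0.92, FDR 0.00739) and in ISF (-2.93, SE 0.92, FDR 0.00550), in 7 of 7 horses in each.

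Its later course parted between the fluids. At 96 hours S100A12 ran from 485 to 6688 GeTMM in SF (median 2225) and from 369 to 9468 in ISF (median 3963), and at 6 days from 147 to 17690.1 in SF (median 2163) and from 9.13 to 5068 in ISF (median 488). By 10 days it ran from 4.85 to 2621 in SF (median 485) and from 4.19 to 60.5 in ISF (median 23.0). The ranges overlapped at every time point, and the SF cultures of Dealings, RimRun and Dreamer also held little S100A12 at 10 days (4.85, 62.3 and 65.8 GeTMM).

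At 10 days S100A12 was lower in ISF by 3.20 (log2 fold change -3.20, SE 0.95, FDR 0.0103), in 7 of 7 horses and by a median of 15.3-fold within a horse. The call held in 14 of 17 alternatives, and was lost in the fit of only the groups compared and without Catnip or Ollie (highest FDR 0.0615). The difference at 6 days was -1.90 (SE 0.88, FDR 0.0967), lower in 7 of 8 horses with Lurie the exception, and it was called only with the horse as a replicate block (FDR 0.0157, range over the alternatives 0.0157 to 0.325). Without the Moon library it was -1.44. At 48 and 96 hours the values were -0.04 (SE 0.95) and 0.39 (SE 0.88, FDR 0.848), with intervals of 2 SE from -1.93 to 1.86 and from -1.38 to 2.16. At 96 hours the libraries labelled Dealings (485 in SF, 5015 in ISF) and Dreamer (3267 in SF, 369 in ISF) were the extremes in either direction, and without these ISF libraries the value was 0.72.

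Within ISF S100A12 fell from 6 to 10 days (log2 fold change -4.42, SE 0.92, FDR 5.45e-04), in 7 of 7 horses and in 17 of 17 alternatives. In SF it fell over the same interval (-3.11, SE 0.92, FDR 0.0346), but only 7 of 17 alternatives called it (FDR 0.00123 to 0.417), and the call was lost without the Moon library (-2.65, FDR 0.112). The net change to 10 days was -7.30 in SF (SE 0.92, FDR 2.39e-10) and -10.50 in ISF (SE 0.92, FDR 5.05e-16), a median of 85.5-fold and of 1849-fold down within a horse. The step from 96 hours to 6 days in ISF was -2.41 (SE 0.88, FDR 0.0913) and passed with the replicate block, with library weights and without Moon (lowest FDR 0.00825, highest 0.272).

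Genes of neutrophil precursors, like S100A12, fell over the culture. The summed level of 6 such genes ran from 11356 to 20997 GeTMM at 0 hours, from 2.15 to 1648 in SF at 10 days (median 173) and from 0.759 to 63.7 in ISF (median 18.2). At 96 hours the medians of this sum were 2753 in SF and 1926 in ISF, whereas those of S100A12 were 2225 and 3963. Of these 6 genes, 5 were lower in ISF at 6 days, where 30.2% of all genes tested were called between the fluids. At 10 days 3 were lower (0 in the voom fit), where 20.8% of all genes were called. All 6 were below 0 hours in both fluids at 10 days, where 69.6% of all genes were called in SF and 74.5% in ISF. Of 3 mature neutrophil genes 1 was called at 6 and 10 days, the matrix protease MMP9, which macrophages also make, and it was higher in ISF. The sum of 4 monocyte markers ran from 28118.5 to 53692 at 0 hours, with medians of 881 in SF and 169 in ISF at 10 days, and most of it was lysozyme (LYZ), with medians of 33619 at 0 hours, 672 in SF and 57.7 in ISF. These markers went both ways, LYZ being lower in ISF at 6 and 10 days and VCAN higher at both. No gene of either list was at 0 in every library of a group. The part of these cells in the S100A12 values was not tested.

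The members that stayed abundant, S100A11, S100A4, S100A6 and S100A10, differed less between the fluids. S100A11 (calgizzarin), an annexin-binding protein, was the one member higher in ISF at several time points. It ran from 1967 to 3156 GeTMM at 0 hours (median 2378.5), from 1429.9 to 2135 in SF at 48 hours (median 1845) and from 2436 to 3179 in ISF at 48 hours (median 2622). The fluids did not overlap at 48 hours, with a gap of 1.14-fold, as was so for 1.06% of all genes tested. At 96 hours it ran from 2137 to 3811 in SF (median 2921) and from 2628 to 5428 in ISF (median 4319.6). By 6 days the ranges were 1613 to 7140.3 in SF (median 3103, Moon highest) and 3399.8 to 8257 in ISF (median 6022), and by 10 days 2549 to 4775 in SF (median 3531) and 4435 to 7917 in ISF (median 5834).

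S100A11 was higher in ISF by 0.54 at 96 hours (SE 0.18, FDR 0.0433), by 0.71 at 6 days (SE 0.18, FDR 0.00181) and by 0.67 at 10 days (SE 0.19, FDR 0.00832). It was higher in 8 of 8, 7 of 8 (Moon the exception) and 7 of 7 horses at those times. At 96 hours only 8 of 17 alternatives called it (FDR 8.55e-04 to 0.151), and it was lost without the ISF libraries labelled Dealings and Dreamer (0.54, FDR 0.0866), whereas 16 of 17 did at 6 days and at 10 days, the call being lost in the fit of only the groups compared at 6 days (FDR 0.109) and without Dealings at 10 days (FDR 0.0914). At 48 hours the value was 0.57 (SE 0.19, FDR 0.111), higher in 7 of 7 horses, and it passed with the replicate block, among 5 of 17 alternatives (FDR 0.00555 to 0.327), the one without the Moon library (FDR 0.0398) being another. From 0 to 48 hours in SF the value was -0.42 (SE 0.19, FDR 0.0566), called in 7 of 17 alternatives (FDR 0.0171 to 0.233), the one without the Moon library among them (FDR 0.0299). S100A11 rose from 48 to 96 hours in both fluids, by 0.71 in SF (SE 0.19, FDR 0.00261) and by 0.67 in ISF (SE 0.19, FDR 0.00667), and in neither fluid was a later step called. Its net rise was 0.54 in SF (SE 0.19, FDR 0.00834) and 1.21 in ISF (SE 0.19, FDR 4.40e-08), in 7 of 7 horses in each.

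S100A10 (p11), the partner of annexin A2 at the cell surface, showed no difference between the fluids that passed the test. It ran from 111 to 218 GeTMM at 0 hours (median 172), from 360.2 to 505 in SF at 96 hours (median 404) against 229.7 to 565 in ISF (median 284), and from 267 to 436 in SF at 10 days (median 345) against 157 to 537 in ISF (median 291). Its values in ISF against SF were -0.44, -0.47, -0.39 and -0.26 at 48 hours, 96 hours, 6 days and 10 days (SE 0.22 to 0.23, each FDR at least 0.162), with 7 of 7, 7 of 8, 5 of 8 and 5 of 7 horses lower. At 96 hours the interval of 2 SE ran from -0.90 to -0.04, and 3 of 17 alternatives called it (FDR 0.0111 to 0.374), the one without the Moon library among them (FDR 0.0425). Without the Moon library the value at 6 days was -0.10. S100A10 rose from 0 to 48 hours in SF by 0.73 (SE 0.22, FDR 0.00561) in 7 of 7 horses and 17 of 17 alternatives, and from 48 to 96 hours by 0.59 (SE 0.22, FDR 0.0414) in 7 of 7 horses. The latter call held in 8 of 17 alternatives (FDR 2.65e-04 to 0.131) and was lost without the filter on low values, with median-of-ratios scaling and without any 1 of the horses other than Moon. In ISF from 48 to 96 hours the value was 0.56 (SE 0.22, FDR 0.0674), called in 4 of 17 alternatives (FDR 0.00338 to 0.294), the one without the Moon library among them (FDR 0.0102). Over the whole culture S100A10 rose by 1.11 in SF (SE 0.22, FDR 1.56e-05) and by 0.84 in ISF (SE 0.22, FDR 6.31e-04).

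S100A4 (metastasin), a partner of non-muscle myosin, changed its order between the fluids over time. It ran from 612 to 1274 GeTMM at 0 hours (median 798). At 96 hours it ran from 463 to 2029.9 in SF (median 1424) and from 388 to 1388 in ISF (median 1014), with ISF lower in 8 of 8 horses. At 10 days it ran from 586 to 1462 in SF (median 969.7) and from 753 to 2730.4 in ISF (median 2035), with ISF higher in 7 of 7 horses. Neither difference passed the test, with values of -0.61 at 96 hours (SE 0.40, FDR 0.376) and 1.05 at 10 days (SE 0.43, FDR 0.0713). The latter was called in 6 of 17 alternatives, the replicate block and the one without the Moon library (FDR 0.00983) among them, with FDR from 0.00700 to 0.234.

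The difference of S100A4 at 6 days rested on 1 library. SF values ran from 241 to 20807 GeTMM, where the highest was Moon and the next 1356, and ISF values ran from 361 to 1891. The log2 difference was -0.46 (SE 0.40, FDR 0.413) with that library and 0.11 without it. Against 0 hours S100A4 rose by 1.25 in ISF at 10 days (SE 0.42, FDR 0.00581), in 7 of 7 horses and 17 of 17 alternatives, and its value in SF was 0.20 (SE 0.42, FDR 0.684). From 6 to 10 days in ISF the value was 1.02 (SE 0.42, FDR 0.115), called in 3 of 17 alternatives (FDR 0.0116 to 0.322), the one without the Moon library among them (FDR 0.0174).

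S100A6 (calcyclin), known for its binding to the ubiquitin ligase adaptor CACYBP, was called between the fluids at the last time point alone. It ran from 163 to 317 GeTMM at 0 hours (median 248), from 96.1 to 484 in SF at 96 hours (median 252) and from 88.3 to 604 in ISF at 96 hours (median 305). At 10 days it ran from 187 to 892 in SF (median 429) and from 331 to 2099 in ISF (median 1484). ISF was higher in 7 of 7 horses at that time, though the ranges overlapped through Catnip, whose ISF library held 331 while the others held at least 1042.

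At 10 days S100A6 was higher in ISF by 1.49 (SE 0.49, FDR 0.0224). The call held in 13 of 17 alternatives and was lost without Dealings, Dreamer, Lurie or Ollie (highest FDR 0.147). At the earlier times the values were 0.21, 0.07 and 0.08 (SE 0.46 to 0.49), with intervals of 2 SE that reached from -0.85 to 1.19, and the value at 6 days was 0.53 without the Moon library. S100A6 rose within ISF from 6 to 10 days by 1.92 (SE 0.48, FDR 0.00384) in 7 of 7 horses, and over the whole ISF culture by 2.32 (SE 0.48, FDR 1.61e-05), whereas the net value in SF was 0.83 (SE 0.48, FDR 0.115).

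**Figure D5:**
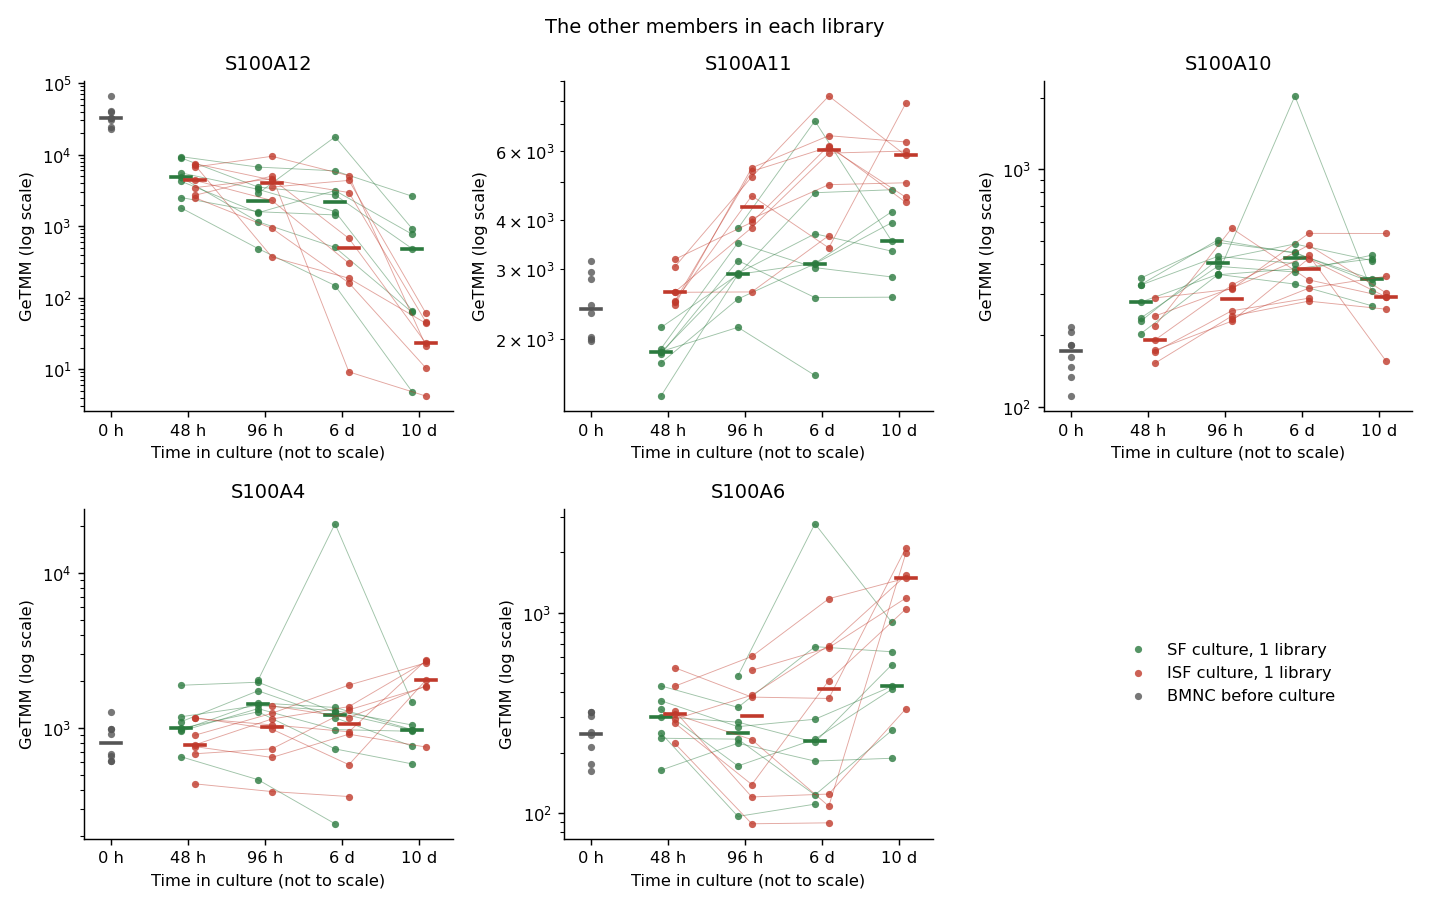
GeTMM (log axes, a scale of its own in each panel) of S100A12, S100A11, S100A10, S100A4 and S100A6 in each library over time, drawn as for S100A1 and S100A13. S100A12 drops from a median of 32534 at 0 hours to 485 in SF and 23.0 in ISF at 10 days, S100A11 is higher in ISF, and the isolated SF point at 6 days in S100A4, S100A6 and S100A10 is Moon.

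The steps within each fluid were also counted over the 6 members other than S100A1. In SF 3 of 6 were called from 48 to 96 hours (27.3% of all genes), 1 of 6 from 96 hours to 6 days (2.05%) and 1 of 6 from 6 to 10 days (4.78%). In ISF 2 of 6 were called from 48 to 96 hours (19% of all genes), and 2 of 6 from 6 to 10 days (10.5%). From 96 hours to 6 days in ISF limma called 0 of 6 (6.38% of all genes), with 1 of 6 at an unadjusted p under 0.05 and 0 of 6 in the voom fit. The 1 SF call from 96 hours to 6 days was S100A13 (1.20, SE 0.35, FDR 0.0467), which only 4 of 17 alternatives called (FDR 0.0224 to 0.545) and which was lost without the Moon library (0.89, FDR 0.186) and without the ISF libraries labelled Dealings and Dreamer (FDR 0.0550). Over the whole culture 4 of 6 members were called in SF (69.6% of all genes) and 6 of 6 in ISF (74.5%).

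An interaction term asked if the fluids diverged between 48 hours and 10 days. It called 2.99% of all genes and 0 of 6 members, with 2 of 6 at an unadjusted p under 0.05 and 0 of 6 in the voom fit. The largest member values were -3.17 for S100A12 (SE 1.34, FDR 0.194), 1.45 for S100A4 (SE 0.61, FDR 0.189) and 1.28 for S100A6 (SE 0.69, FDR 0.358). S100A12 was called with the replicate block and with library weights (FDR over the alternatives 0.0319 to 0.420), and S100A4 in 4 of 17 alternatives (FDR 0.0142 to 0.456), the one without the Moon library among them (FDR 0.0390). For S100A1 the corresponding value, with no test, was -2.34 (SE 0.81).

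Other S100 genes were mostly near the limit of detection. Of 10 on the list, 4 were tested, and S100P, an S100 protein of granulocytes and epithelia, was the only abundant one, with a median of 20336 GeTMM at 0 hours. It fell in both fluids to medians of 2039 in SF and 1978 in ISF at 10 days and was not called between the fluids at any time point. S100A2 was lower in ISF at 6 days (-0.80, SE 0.23, FDR 0.00500) and at 10 days (-0.66, SE 0.24, FDR 0.0427), with medians of 0.780 in SF and 0.322 in ISF at 6 days. S100A16 was lower in ISF at 10 days (-1.47, FDR 0.00598), from a median of 0.451 in SF and 0 in ISF. It was above 0 in only 24 of 68 libraries, with a highest value of 34.4 GeTMM, so its call rests on few libraries. The differences of S100A2 and S100A16 both rest on few reads.

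Receptors of released S100 proteins were present in part. Of 9 on the list, 8 had a row of their own and 7 were tested. TLR4 was listed at 0 in 66 of 68 libraries, and the symbol CD14 was shared by 2 rows and not used. AGER, the receptor for advanced glycation end products, had a median of 2.89 GeTMM at 0 hours and was below it in both fluids at 10 days (-1.39 in SF, FDR 3.71e-13, and -1.44 in ISF, FDR 5.98e-14), with no call between the fluids. Between the fluids 1.68%, 10.5%, 30.2% and 20.8% of all genes tested were called at 48 hours, 96 hours, 6 days and 10 days. At 6 days 3 of 7 were higher in ISF: the adaptor MYD88 (0.82, FDR 0.00106), the scavenger receptor CD36 (1.00, FDR 0.00103) and the adhesion molecule ALCAM (1.24, FDR 3.93e-04). At 10 days ALCAM was still higher (0.90, FDR 0.0235) and CD69, an early activation receptor of lymphocytes that binds S100A8 with S100A9, was lower (-1.45, FDR 0.00279), while at 48 and 96 hours limma called 0 of 7, with 2 of 7 at an unadjusted p under 0.05 and 0 of 7 in the voom fit at each.

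Intracellular partners of S100 proteins were measured as well, and 9 of 12 on the list were tested. At 6 days 4 were higher and 1 lower in ISF (30.2% of all genes were called), and at 10 days 3 were higher and 3 lower (20.8%). Annexin A2 (ANXA2), the partner of S100A10, was higher in ISF at 6 days (0.69, FDR 0.0226) and at 10 days (0.82, FDR 0.0160), with medians of 1710.3 GeTMM in SF and 2891 in ISF at 10 days, while S100A10 itself was not called. Annexin A6 (ANXA6) was higher at both times (0.60, FDR 5.11e-04, and 0.62, FDR 0.00127). The targets of S100A1 in muscle moved in opposite directions. RYR1, the calcium release channel, was lower in ISF at 96 hours (-0.83, FDR 0.0115), at 6 days (-1.32, FDR 7.13e-06) and at 10 days (-1.31, FDR 4.90e-05), with medians of 5.53 GeTMM in SF and 1.36 in ISF at 10 days, and ATP2A2, the calcium pump, was higher at 96 hours (0.43, FDR 0.0420), at 6 days (0.87, FDR 4.09e-06) and at 10 days (0.64, FDR 0.00168).

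The oxidase of phagocytes, which S100A8 and S100A9 help to activate, was measured through 6 subunit genes. For these limma called 0 of 6 between the fluids at each of the 4 time points, with 0 of 6 at an unadjusted p under 0.05 and 0 of 6 in the voom fit. Of all genes tested, 1.68%, 10.5%, 30.2% and 20.8% were called between the fluids at 48 hours, 96 hours, 6 days and 10 days. Against 0 hours 4 of 6 subunit genes were lower at 10 days in each fluid, where 69.6% of all genes tested were called in SF and 74.5% in ISF. CYBB, its catalytic subunit, stood at medians of 992 GeTMM at 0 hours, 732 in SF and 906 in ISF at 10 days.

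The genes whose levels were most like each member over the 68 libraries differed from member to member. For S100A1 they were FAXDC2 (Pearson r 0.85), ASPA (0.84) and PDCD4 (0.84), and over the 30 differences within horses ADIPOQ (0.80), FMO5 (0.78), CD99L2 (0.77), SLC2A4RG (0.76) and MLANA (0.74). Of these, ADIPOQ lay near the floor, with a median of 0 GeTMM in ISF at each time point and of at most 0.948 in SF. The medians of FMO5 were at most 2.94 GeTMM. For S100A12 the genes most alike were RETN (0.98), LYZ (0.97) and LCN2 (0.97), products of granulocytes and monocytes. S100A13 was most like YAE1 (0.91), PRCP (0.90) and ACYP2 (0.90), S100A11 most like UQCRC2 (0.88), VDAC2 (0.87) and ACOT7 (0.87), and S100A10 most like DNPEP (0.84), SOD1 (0.83) and HDAC3 (0.82). For S100A6 they were NAT14 (0.85), MCRIP2 (0.83) and SLC25A4 (0.83), and for S100A4 FXYD5 (0.72), GFY (0.72) and FAM241B (0.69). Only 2 genes were more like S100A4 than S100A6 was (r 0.70). These correlations share horses, time points and depth and are given as descriptions.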

How the data were processed

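RNA sequencing of 68 libraries from 8 horses was used. The authors trimmed the reads with TrimGalore, aligned them to the horse genome EquCab 3.0 with STAR 2.7.2a and took gene counts on an Ensembl annotation. The deposited table gives GeTMM, which the authors computed from the counts with edgeR, an RPKM-like unit, in which reads per kilobase of gene are set relative to the library and scaled by TMM factors. The number of value columns belonging to no labelled sample was 0.

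Members and gene lists were chosen with earlier results of these data known. Values were transformed as log2(GeTMM + 1), so that fold changes of low genes are understated, and the 14570 genes reaching 0.5 GeTMM in at least 7 libraries were tested. limma 3.58.1 in R 4.3.3 (lmFit, contrasts.fit, eBayes with a trend) was fitted to all libraries in 9 groups without a horse term, in place of the DESeq2 tests that the authors ran on counts. FDR is the two-sided p adjusted by Benjamini-Hochberg across the genes of 1 comparison, and calls needed an FDR under 0.05. The 15 comparisons were ISF against SF at 4 time points, 4 intervals and the net change within each fluid, and the interaction. S100A1 was given no p for comparisons between the fluids or with libraries from 96 hours on. Each comparison was repeated under 17 alternatives. Genes named from the S100, receptor, partner and oxidase lists were those called between the fluids at 6 or 10 days, at most 4 per list by size, and the genes most like a member were the 3 (5 for the differences of S100A1) with the highest Pearson r. S100P, AGER, TLR4, S100B, CYBB and MMP9 fell outside this rule and were named after their values were seen.

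Reads per gene were recovered from the GeTMM steps, with whole gene lengths found for 24063 of 24065 genes, and were used for depth and the voom alternative. Depth covers counting error only. SF and ISF libraries of a time point are paired by horse, as the labels name it, and their deviations from the group means correlated with medians of 0.45, 0.46, 0.27 and 0.21 at 48 hours, 96 hours, 6 days and 10 days. No libraries were identical (highest r 0.989). Each value comes from 1 culture well. The fit was tested on simulated data of ISF against SF at 6 days, with 200 of 14570 genes changed. It called 81% of genes changed by 1 and 99% of those changed by 2 on the log2 scale. Of the calls, 3.74% were false. The simulated libraries were independent, with no horse effect and no library that stood apart. Changed genes were drawn from those of higher mean level, so these rates may not hold for the measured libraries. Recovery in genes with few reads, such as S100A1 in ISF, was not tested separately.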

Additional observations from a re-analysis of the deposited data

Results flagged for a closer look

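In groups of 7 or 8 libraries, 6 of 63 groups of a member held a value far from all others (Dixon's test at 95%), where chance gives about 1 in 20 (3.15 of 63). The SF library of Moon at 6 days was highest for S100A4 (20807 GeTMM, the next 1356) and for S100A10 (2032, the next 485). The ISF library of Catnip at 10 days was lowest for S100A4 (753, the next 1847) and for S100A6 (331, the next 1042). The SF library of Flash at 96 hours was lowest for S100A4 (463, the next 1271), and the ISF library labelled Dreamer at 96 hours was highest for S100A10 (565, the next 326).

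S100A4 was lower in ISF in 8 of 8 horses at 96 hours and higher in ISF in 7 of 7 horses at 10 days, where its log2 difference was 1.05. The change of its difference between these 2 times was not tested.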

How the results depend on the processing

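The calls of S100A13 at 96 hours, 6 days and 10 days, of S100A1 in ISF from 0 to 48 hours and of S100A12 in both fluids from 0 to 48 hours held in 17 of 17 alternatives, and those of S100A11, S100A12 and S100A6 between the fluids did not. Over all alternatives, 1429 tested values of single members kept direction and side of the threshold, 43 gained and 55 lost a call, and 37 changed sign, each of them uncalled with both signs. The 221 values of S100A1 that carry no test kept their sign. Among counts of called members, 165 were equal to the reported count, 37 changed by at most 1.5 times and 53 changed by more, and the causes were not tested. Differences in genes with few reads, such as S100A1 in ISF, are limited by depth.

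Between the fluids at 48 hours, 0 members became 1 with the replicate block (horse), 1 in the fit of only the groups compared, and 2 with library weights or without Moon's SF library from 6 days. At 96 hours, 2 became 3 in the fit of only the groups compared, with library weights and without the Moon library, and 1 without the filter on low values, with median-of-ratios scaling and without the ISF libraries labelled Dealings and Dreamer. At 6 days 2 became 3 with the block and 1 in the fit of only the groups compared, and at 10 days 4 became 5 with the block, with weights and without the Moon library. In ISF from 6 to 10 days 2 became 1 in the fit of only the groups compared and 3 with weights and without the Moon library. In ISF from 48 to 96 hours 2 became 1 in the voom fit and 3 in the fit of only the groups compared, with weights and without the Moon library. In SF 3 became 2 from 48 to 96 hours without the filter and with median-of-ratios scaling, 3 became 4 from 0 to 48 hours with the block, in the fit of only the groups compared, with weights, in the voom fit and without the Moon library, and 4 became 5 for the net change in the fit of only the groups compared and with weights. In SF from 96 hours to 6 days, 1 became 0 with a pseudocount of 0.1, without the filter, in the fit of only the groups compared, with library weights and without either set of doubted libraries. In SF from 6 to 10 days, 1 became 0 without the filter, in the fit of only the groups compared, with library weights and without the Moon library. In ISF from 96 hours to 6 days, 0 became 1 with the block and with weights. For the interaction, 0 became 1 with the block, in the fit of only the groups compared and without the Moon library, and 2 with weights.

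Signs changed as follows on the log2 scale. With the replicate block S100A4 in ISF from 0 to 48 hours was 0.10 and S100A11 in ISF from 6 to 10 days was -0.0064. With library weights S100A4 was 0.079 between the fluids at 6 days and 0.023 in SF from 6 to 10 days, and in SF between 96 hours and 6 days S100A6 was -0.042 and S100A10 was -0.013. Without the Moon library these 4 values were 0.11, 0.067, -0.11 and -0.022.

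Leaving out 1 horse at a time, the members called between the fluids ranged from 0 to 2 (48 hours), 1 to 2 (96 hours) and 2 to 5 (10 days), in SF from 3 to 4 (0 to 48 hours), 2 to 3 (48 to 96 hours) and 0 to 1 for both later steps, from 1 to 3 in ISF from 48 to 96 hours and 2 to 3 from 6 to 10 days, and from 0 to 1 in ISF from 96 hours to 6 days and for the interaction. Between the fluids, S100A4 ranged from -0.61 to 0.065 at 6 days, S100A6 from -0.089 to 0.21 at 96 hours and from -0.13 to 0.38 at 6 days, and S100A12 from -0.17 to 0.12 at 48 hours and from -0.033 to 0.90 at 96 hours. In SF from 96 hours to 6 days, S100A4 ranged from -0.52 to 0.10, S100A10 from -0.048 to 0.33 and S100A12 from -0.51 to 0.11. S100A11 ranged from -0.061 to 0.25 in SF and from -0.13 to 0.14 in ISF from 6 to 10 days, and from -0.084 to 0.23 for the interaction, and S100A4 ranged from -0.15 to 0.22 in ISF from 0 to 48 hours.

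Over all genes, calls between the fluids moved from 245 to between 75 (without Dreamer) and 2233 (library weights) at 48 hours, with 660 under the block, from 1524 to between 882 (without Dreamer) and 4206 (weights) at 96 hours, with 2431 under the block, from 4405 to 1995 (only the groups compared) at 6 days and from 3027 to 1945 (without Dealings) at 10 days. In SF they moved from 3982 to 6341 (weights) for 48 to 96 hours, from 298 to between 61 (only the groups compared) and 558 (block) for 96 hours to 6 days, and from 696 to between 3 (only the groups compared) and 1450 (block) for 6 to 10 days. In ISF they moved from 2764 to between 1824 (without Dreamer) and 4941 (weights), from 929 to between 422 (without Ollie) and 2215 (weights), with 1552 under the block, and from 1533 to 854 (without Ollie) for the later intervals in turn. For the interaction they moved from 436 to between 173 (without Ollie) and 1641 (weights), with 1095 under the block.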
